A study of Mus musculus with 12 samples.

Results

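The genes described here are 35 enzymes, transporters and regulatory subunits of glycolysis and glycogen metabolism, taken by gene symbol from a list of names. The list was chosen with earlier results of these data known. All 35 were found among the 12752 genes of the count table and all 35 passed the filter on low counts. RNA sequencing measured them in whole tibialis anterior, a fast hindlimb muscle, of male C57BL/6 mice. The muscles received AAV vectors when the mice were 8 weeks old, and every group received AAV:TET, the vector that makes expression depend on doxycycline. In the group EV the other vector was the empty AAV:MCS and the mice stayed on normal chow. EV_DOX had the same vectors, and from 7 days after injection the chow held 600 mg/kg doxycycline. DUX had AAV:Dux, which carries the mouse double homeobox gene Dux, on normal chow, and DUX_DOX had AAV:Dux with doxycycline chow. Each group has 3 libraries. The Dux muscle was contralateral to the empty vector muscle, so a control muscle lay in an animal that also carried Dux. The protocol names 2 or 7 days of doxycycline without saying which holds for these libraries, and which promoter drives Dux is unknown here. The study asked how gene expression in muscle changes when Dux is switched on.

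Skeletal muscle takes up glucose through GLUT4, traps it with hexokinase, and either stores it as glycogen or splits it to pyruvate and lactate. Glycogen phosphorylase releases glucose units from the store. It is switched on by phosphorylase kinase, a complex of regulatory, catalytic and calcium-binding subunits, and switched off by a phosphatase that targeting subunits hold on the glycogen particle. Fast muscle uses its own isoforms at several steps, encoded by genes such as Pfkm, Pgam2, Eno3 and Pygm, while other tissues use sister genes.

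Library totals ran from 11880593 to 13811999 counts, and the scaling factors from 0.916 to 1.12. The Dux gene is not analysed here. AW822073, a transcript beside the mouse Dux locus, had 37, 60 and 46 counts in the DUX_DOX libraries and between 0 and 2 in the other 9. Muscle markers were high in all 12 libraries, with summed CPM (counts scaled to the adjusted library total) of Mb, Des, Ckm, Acta1 and Ttn between 52816 and 71042. In EV replicate 3 and EV_DOX replicate 1 the summed tenocyte markers were 1012 and 931 CPM, against at most 317 in the others. The libraries of a group differed by more than sampling noise. Nothing in the labels ties them to separate animals, so p-values measure the spread between these libraries. The comparisons used the quasi-likelihood test of edgeR with p-values adjusted by Benjamini-Hochberg over 12751 genes. A gene is said to rise or fall where the adjusted p is under 0.05.

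The genes spanned a wide range of levels in control muscle. On the scale of CPM per kilobase of annotated exon, which allows genes to be compared, Aldoa (aldolase) stood highest in EV at 5619.9 ± 271 (SD, n = 3). Eno3 (muscle enolase) followed at 2556 ± 257 and Pygm (muscle glycogen phosphorylase) at 2528 ± 143, and the libraries of these last genes overlapped. Pgam2 (muscle phosphoglycerate mutase) lay below both, at 2081 ± 208, without overlap. At the bottom were the isoforms that other tissues use: Hk1 at 1.67 ± 0.262, Pygb at 1.54 ± 0.301, Pfkl at 1.28 ± 0.157, Pgam1 at 1.23 ± 0.403 and Pfkp at 0.505 ± 0.0323. Exon length counts every annotated transcript form, so a gene with many forms is scaled down. Aldoa, Pygm, Eno3, Pfkm, Gapdh and Pkm together held 74.9% of the genes' counts in EV and 75.7% in DUX_DOX.

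**Figure D1:**
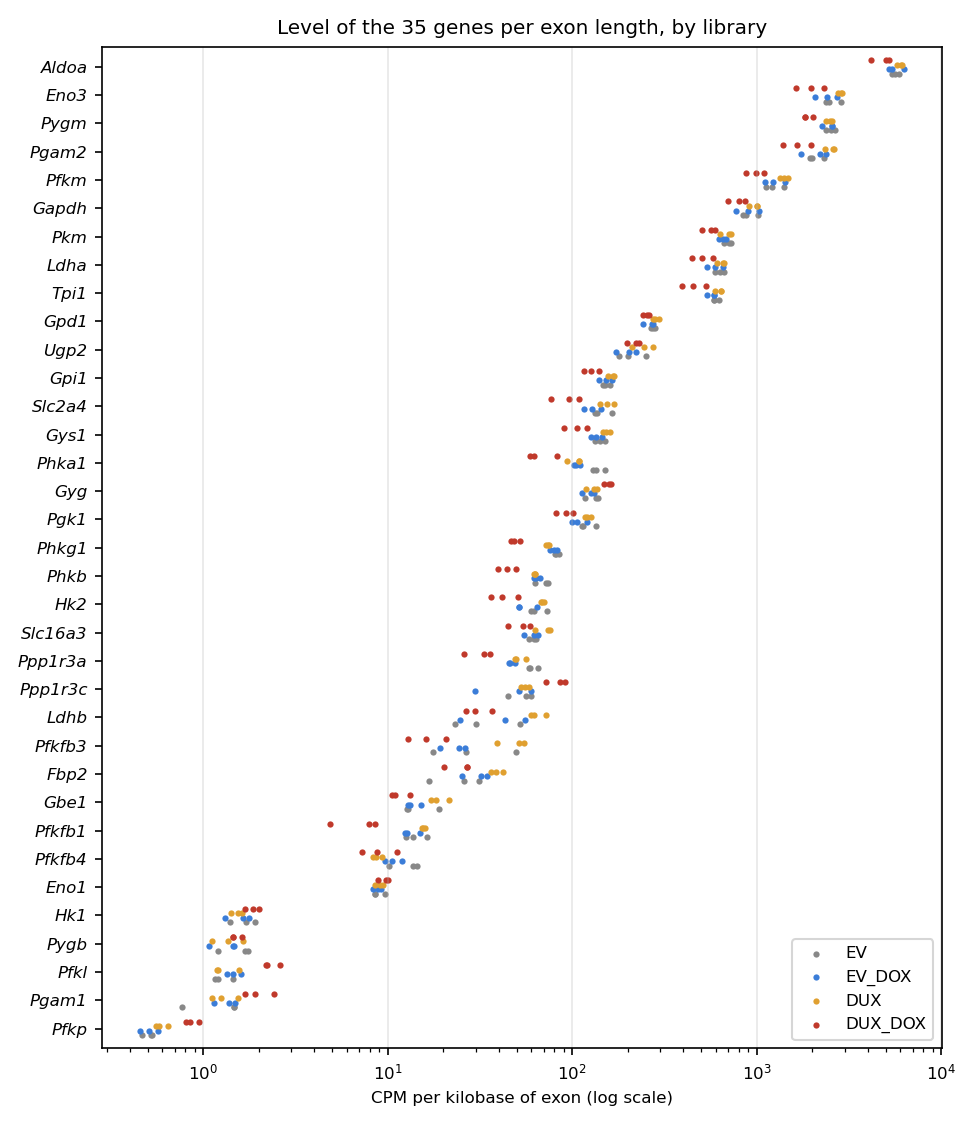
CPM per kilobase of exon on a log axis for the 35 genes, ordered by their mean in EV, with 1 point per library coloured by group. Aldoa is highest, Pfkp lowest, and in the lower rows the DUX_DOX points of Pfkl and Pfkp lie to the right of the other groups.

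With Dux switched on, muscle held less RNA of the phosphorylase kinase subunits, of the glycogen phosphatase subunit Ppp1r3a and of the kinase-phosphatase Pfkfb1. It held more of Ppp1r3c, Pfkp, Pfkl and Gyg. RNA of the glucose transporter Slc2a4 and of Pygm, Gys1, Hk2 and Tpi1 was lower too. The calls of Slc2a4, Pygm, Gys1, Hk2, Tpi1 and Gyg did not hold under every alternative fit. In DUX_DOX against EV_DOX, 10 of the 35 genes fell (28.6%) and 4 rose (11.4%), where 10.3% of all genes fell and 14.9% rose. At an unadjusted p under 0.05 there were 20, beside 37.8% of all genes. The median log2 fold change of the 35 was -0.25, beside -0.01 over all genes tested. The DUX_DOX libraries lay wholly below EV_DOX for 14 genes, against 17.3% of all genes, and wholly above for 5, against 21.4%. Because the list was chosen with earlier results known, such shares and medians describe the 35 genes and do not test them as a set. In bulk muscle, fewer fibres and less RNA per fibre cannot be told apart.

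Against DUX, the same vector on normal chow, 22 of the 35 genes were lower in DUX_DOX and 4 were higher, where the background is 13.1% lower and 16.5% higher. The median was -0.41, beside 0.01 over all genes. Libraries did not overlap for 25 genes on the lower side (22.6% of all genes) and 6 on the higher side (26% of all genes). Both comparisons use the same DUX_DOX libraries. When libraries were scaled to 22 sarcomere genes in place of all genes, the median of all genes against EV_DOX moved to 0.28. The calls among the 35 became 9 higher and 5 lower, with a median of 0.02. Of the 12751 genes, 4729 were then called in either direction, in place of 3224. On that scale the calls against DUX became 7 higher and 12 lower, with a median of -0.16 beside 0.26 over all genes. Here 4779 of all genes were called, in place of 3772. The sarcomere genes are no fixed reference. Without that scaling, 7 of the 22 fell against EV_DOX and 1 rose, beside 10.3% and 14.9% of all genes, and their median was -0.31.

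**Figure D2:**
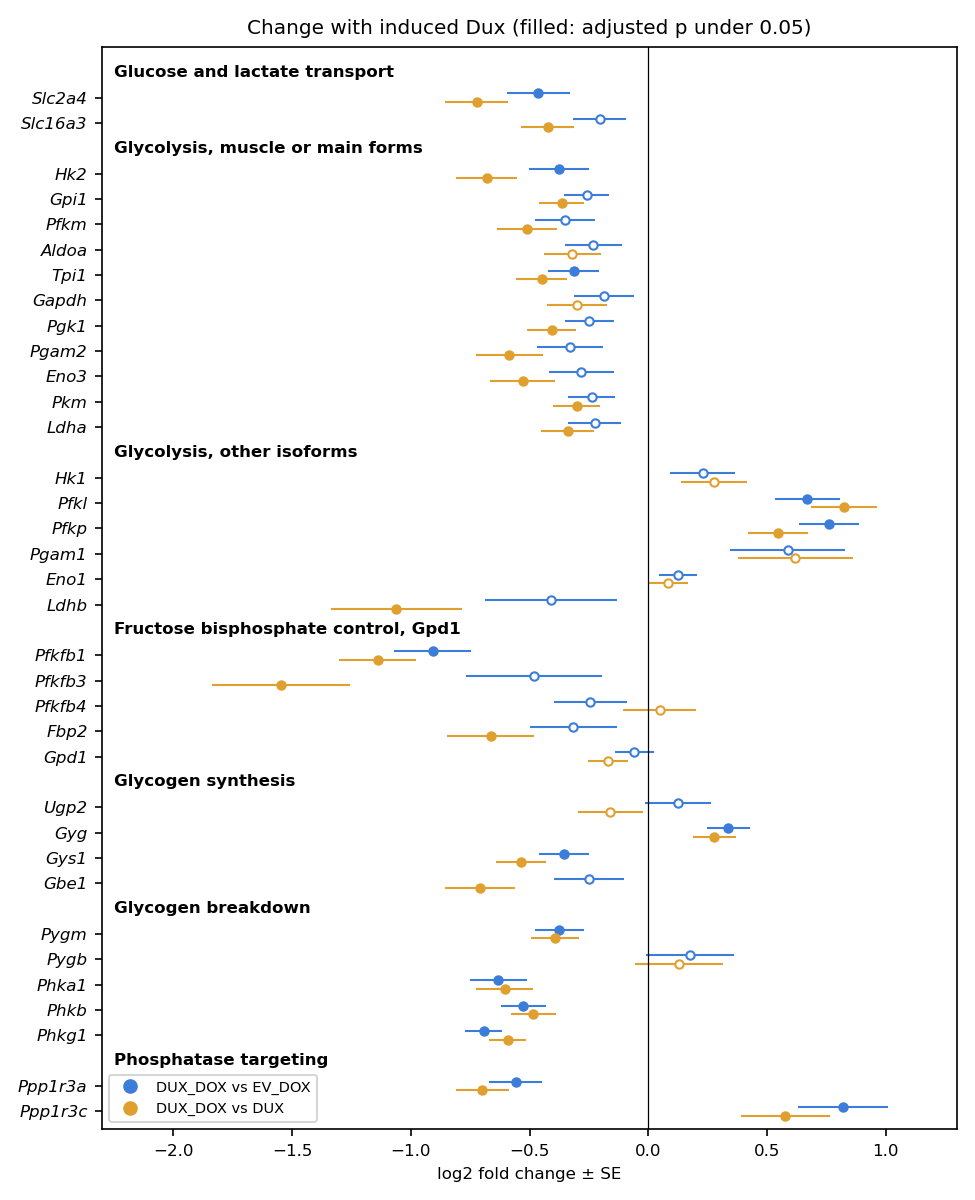
Log2 fold change with its standard error for each of the 35 genes, grouped by role, in DUX_DOX against EV_DOX (blue) and against DUX (orange), with filled points where the adjusted p is under 0.05. The glycogen breakdown genes Phka1, Phkb and Phkg1 are filled below 0 in both, Pfkl, Pfkp, Gyg and Ppp1r3c are filled above 0 in both.

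The 3 subunits of phosphorylase kinase among the 35 genes all fell. Phkg1, the catalytic subunit (ENSMUSG00000025537, chr5:129863421-129898549 in GRCm38), stood at 492, 519 and 536 CPM in EV_DOX and 341, 313 and 304 in DUX_DOX. Every DUX_DOX library lay below every other library of the study (log2 fold change -0.69, SE 0.08, adjusted p = 2.07e-05). It had the smallest p of the 35 genes. Phka1, the alpha regulatory subunit on the X chromosome, had 689.6, 641 and 652 CPM in EV_DOX against 519, 389.9 and 371 in DUX_DOX, with no overlap (log2 fold change -0.63, SE 0.12, adjusted p = 0.00176). Its level was already lower in the other groups than in EV, which had 844, 811 and 938 CPM. Phkb, the beta subunit, went from 463, 472 and 494 CPM to 368, 329.8 and 294 (log2 fold change -0.53, SE 0.09, adjusted p = 0.00111). Against DUX the 3 log2 fold changes were -0.59 for Phkg1, -0.60 for Phka1 and -0.49 for Phkb, all called. These 3 calls against EV_DOX held under all 16 alternatives, which were 10 other settings of the fit, sarcomere scaling among them, and leaving out each library of the 2 groups. With sarcomere scaling the log2 fold changes were -0.41, -0.36 and -0.25 in the same order.

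Pygm, the phosphorylase that the kinase acts on, fell by less. Its levels were 7246, 8175 and 8206 CPM in EV_DOX and 6474, 5895 and 5858 in DUX_DOX, again without overlap (log2 fold change -0.37, SE 0.10, adjusted p = 0.0156). With sarcomere scaling its log2 fold change was -0.09 (adjusted p = 0.398), and it was no longer called with only the 2 groups in the fit (adjusted p = 0.0771), without EV_DOX replicate 3 (adjusted p = 0.0539) or without DUX_DOX replicate 3 (adjusted p = 0.0580). Pygb, the brain form, stayed between 6.94 to 7.85 CPM in DUX_DOX and 5.16 to 7.08 in EV_DOX, and these ranges overlap (log2 fold change 0.18, SE 0.19, adjusted p = 0.520).

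**Figure D3:**
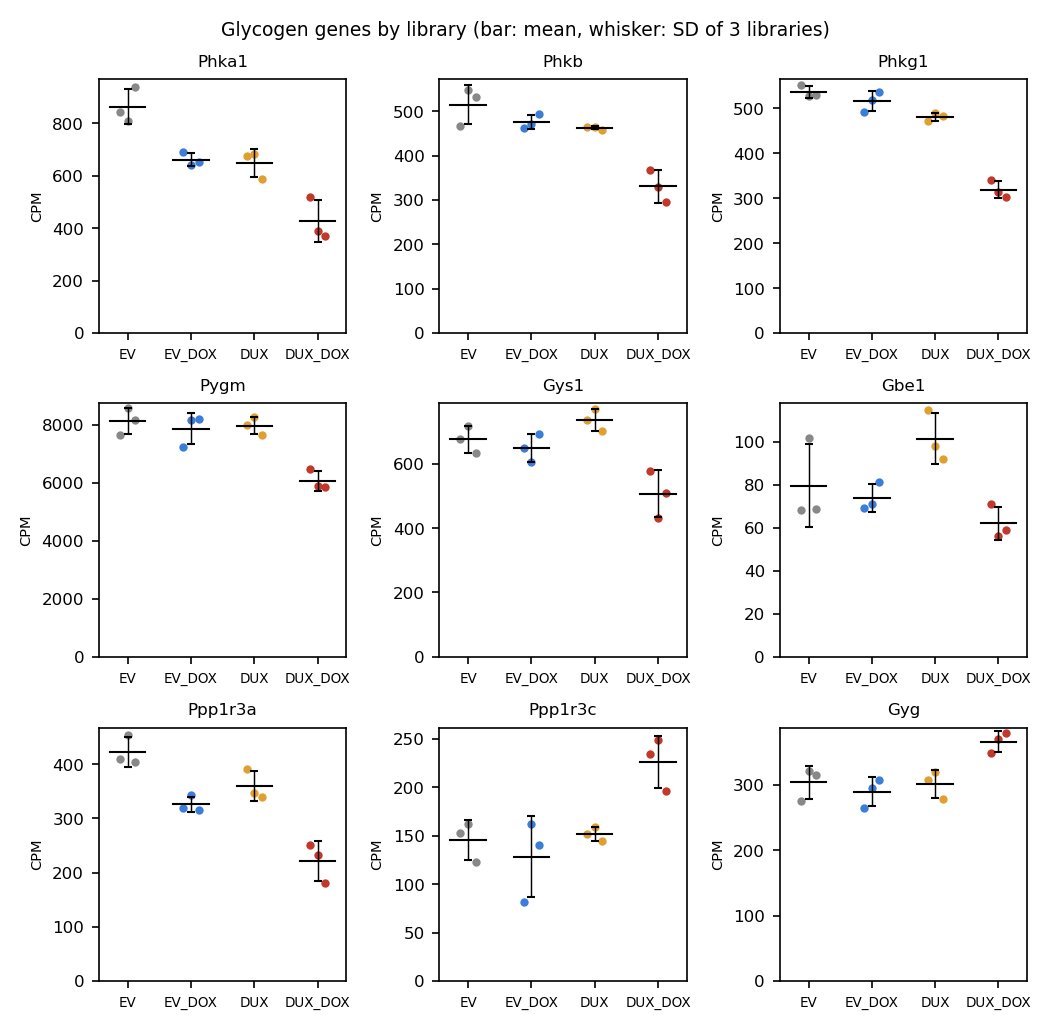
CPM in each library for 9 glycogen genes, with the group mean as a bar and the SD of 3 libraries as a whisker, all axes starting at 0. Phka1, Phkb, Phkg1 and Ppp1r3a are lowest in DUX_DOX, where Ppp1r3c and Gyg are highest.

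The subunits that direct phosphatase to glycogen moved in opposite directions. Ppp1r3a, the muscle targeting subunit, had 319.9, 342 and 315 CPM in EV_DOX and 251, 232 and 181 in DUX_DOX, and all DUX_DOX libraries were below all others (log2 fold change -0.56, SE 0.11, adjusted p = 0.00244). Ppp1r3c, a targeting subunit found in many tissues, had 81.5, 162 and 141 CPM in EV_DOX and 234, 248 and 196 in DUX_DOX, so that every DUX_DOX library was above every other (log2 fold change 0.82, SE 0.19, adjusted p = 0.00602). EV_DOX replicate 1 was the low library of its group for Ppp1r3c, and without it the log2 fold change was 0.58 (adjusted p = 0.00480). Against DUX the log2 fold changes were -0.70 for Ppp1r3a and 0.58 for Ppp1r3c, both called. The Ppp1r3c call against DUX was lost without DUX replicate 1, 2 or 3 and without DUX_DOX replicate 1 or 2 (adjusted p = 0.0673 to 0.117).

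The bases before the starts of 4 of these genes are shown because the kinase subunits fell together while the targeting subunits parted. They come from RefSeq on GRCm38.p6, 5′ to 3′ on the gene's strand, which is the minus strand for all 4, at chr5:129879089-129879338 for Phkg1, chrX:102644247-102644496 for Phka1, chr6:14755275-14755524 for Ppp1r3a and chr19:36736654-36736854 for Ppp1r3c. Only bases outside annotated exons are printed. The Phkg1, Phka1 and Ppp1r3a stretches end at the base before the start annotated by RefSeq. The Ppp1r3c stretch of 201 bases begins 250 bases before its RefSeq start and stops short of it, where an annotated exon begins. For Phkg1 the RefSeq start lies inside the span given above, since GENCODE also holds a longer transcript that begins further upstream. Capitals mark the E-box CANNTG, the MEF2 motif and the box TATAAA, each searched on both strands. In Ppp1r3a the MEF2 match overlaps a reversed TATAAA.
Phkg1: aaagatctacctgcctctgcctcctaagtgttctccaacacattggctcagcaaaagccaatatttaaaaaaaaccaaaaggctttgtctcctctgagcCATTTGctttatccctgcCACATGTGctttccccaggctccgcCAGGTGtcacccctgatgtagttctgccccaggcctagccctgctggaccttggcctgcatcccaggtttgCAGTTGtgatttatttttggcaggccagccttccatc
Phka1: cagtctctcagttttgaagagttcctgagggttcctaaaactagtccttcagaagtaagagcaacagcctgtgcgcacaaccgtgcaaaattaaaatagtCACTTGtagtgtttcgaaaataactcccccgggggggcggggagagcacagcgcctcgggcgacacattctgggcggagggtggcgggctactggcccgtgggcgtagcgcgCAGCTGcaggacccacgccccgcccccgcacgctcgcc
Ppp1r3a: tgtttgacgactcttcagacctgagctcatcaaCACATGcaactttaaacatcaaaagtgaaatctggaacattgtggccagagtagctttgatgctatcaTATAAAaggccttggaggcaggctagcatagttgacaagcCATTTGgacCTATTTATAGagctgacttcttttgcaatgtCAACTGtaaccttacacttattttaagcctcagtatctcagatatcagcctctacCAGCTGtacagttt
Ppp1r3c: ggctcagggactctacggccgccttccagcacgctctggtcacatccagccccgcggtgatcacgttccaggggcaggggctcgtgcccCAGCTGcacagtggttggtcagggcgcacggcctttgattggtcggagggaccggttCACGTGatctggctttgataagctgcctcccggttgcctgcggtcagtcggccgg
The Ppp1r3a stretch holds 4 E-boxes, 1 MEF2 match and 2 TATAAA matches, the Phkg1 stretch 5 E-boxes of which 2 overlap, and the Phka1 and Ppp1r3c stretches 2 E-boxes each. Phkb, the other kinase subunit that fell, is not printed. Its longest stretch outside annotated exons has 37 bases and holds none of these motifs. Over windows of 250 bases before each start, 33 of the 35 genes had an entry. An E-box was present in 72.7% of them and in 69.3% of 27025 genes, a MEF2 match in 9.09% against 1.99%, and TATAAA in 6.06% against 14.3%. The E-box form CAGCTG was present in 33.3% against 14.7%, and ACGTG, the core of hypoxia response elements, in 42.4% against 18.5%. Of the genes with an entry, CAGCTG was held by 5 of the 9 that fell against EV_DOX, 1 of the 4 that rose and 5 of the 20 not called. A MEF2 match was held by 2, 0 and 1 of these, and ACGTG by 2, 1 and 11. A gene counted as holding a motif where any of its starts did, so a gene with several starts had more chances. The 27025 genes are all those with an entry, whether or not they were tested here. A match is only a run of letters in such a window.

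Among the genes that build glycogen, the synthase fell and the primer protein rose. Gys1, muscle glycogen synthase, had 647, 606 and 691 CPM in EV_DOX and 578, 432 and 509.7 in DUX_DOX, with no overlap (log2 fold change -0.36, SE 0.11, adjusted p = 0.0242). With sarcomere scaling the Gys1 value was -0.08 (adjusted p = 0.559), and leaving out EV_DOX replicate 3, DUX_DOX replicate 2 or DUX_DOX replicate 3 ended the call (adjusted p = 0.0847, 0.0941 and 0.0644), as did fitting only the 2 groups (adjusted p = 0.0743). Gyg, glycogenin, the protein on which a glycogen chain starts, had 265, 296 and 308 CPM in EV_DOX and 348, 371 and 379 in DUX_DOX (log2 fold change 0.34, SE 0.09, adjusted p = 0.0156). Its DUX_DOX libraries were the highest of the 12. The call was lost without DUX_DOX replicate 3 (adjusted p = 0.0564) or with only the 2 groups in the fit (adjusted p = 0.0501), and with sarcomere scaling the log2 fold change was 0.62. Against DUX the Gyg value was 0.28 (adjusted p = 0.0342), a call that ended without DUX replicate 1 or 3 or DUX_DOX replicate 2 or 3 (adjusted p = 0.0735 to 0.138). Gbe1, the branching enzyme, ranged over 69.4 to 81.2 CPM in EV_DOX and 56.4 to 70.9 in DUX_DOX and overlapped (log2 fold change -0.25, SE 0.15, adjusted p = 0.235), but was lower than in DUX, at 115, 98 and 91.9 CPM (log2 fold change -0.71, SE 0.15, adjusted p = 0.00265). Ugp2, which makes the activated glucose for synthesis, was not called against EV_DOX (log2 fold change 0.13) or against DUX (-0.16). With sarcomere scaling Ugp2 was called higher against EV_DOX, at 0.41 (adjusted p = 0.0159).

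RNA of the muscle glucose transporter and of the muscle hexokinase was lower with induced Dux. Slc2a4, which encodes GLUT4, had 402, 445 and 501 CPM in EV_DOX and 379, 265 and 333 in DUX_DOX (log2 fold change -0.46, SE 0.13, adjusted p = 0.0199). Hk2, the hexokinase of muscle, had 306, 306 and 386 CPM and 304, 216 and 249.7 CPM in these groups (log2 fold change -0.38, SE 0.13, adjusted p = 0.0441). The groups did not overlap for either gene, although the gap for Hk2 was narrow, and DUX_DOX replicate 2 was the lowest library for both. Leaving out EV_DOX replicate 3, DUX_DOX replicate 2 or DUX_DOX replicate 3 ended each call. In that order the adjusted p became 0.0790, 0.0806 and 0.0526 for Slc2a4 and 0.185, 0.162 and 0.123 for Hk2. Hk2 was also not called with only the 2 groups in the fit (adjusted p = 0.0935). With sarcomere scaling the log2 fold changes were -0.19 for Slc2a4 and -0.10 for Hk2, neither called. Against DUX the values were -0.72 and -0.68, both called. Slc16a3, which encodes the lactate exporter MCT4, was not called against EV_DOX (log2 fold change -0.20, SE 0.11, adjusted p = 0.197) and fell against DUX (log2 fold change -0.42, SE 0.11, adjusted p = 0.0111), but not without DUX replicate 2 (adjusted p = 0.0517) or with sarcomere scaling (adjusted p = 0.200).

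The abundant enzymes of the chain below hexokinase were all on the lower side of EV_DOX, and 1 of them passed the test. Tpi1, triose phosphate isomerase, had 1607, 1485 and 1605 CPM in EV_DOX and 1454, 1077 and 1248 in DUX_DOX, without overlap (log2 fold change -0.31, SE 0.11, adjusted p = 0.0444). Its call was lost in 8 of 16 alternatives, among them with only the 2 groups in the fit (adjusted p = 0.126), without EV_DOX replicate 1 (adjusted p = 0.0830), without EV_DOX replicate 3 (adjusted p = 0.107), without DUX_DOX replicate 2 (adjusted p = 0.155), without DUX_DOX replicate 3 (adjusted p = 0.110) and with sarcomere scaling (log2 fold change -0.04). Pfkm, the phosphofructokinase of muscle, at the committed step, had 3711, 4095 and 4771 CPM and 3649, 2927 and 3299 CPM, which did not overlap but missed the threshold (log2 fold change -0.35, adjusted p = 0.0567). Gpi1, glucose phosphate isomerase, also missed it (log2 fold change -0.26, SE 0.10, adjusted p = 0.0600). Pfkm was called in 7 of the 16 alternatives and not in 9, Gpi1 in 6 and not in 10.

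The log2 fold changes of the remaining enzymes of the chain against EV_DOX were -0.23 for Aldoa, -0.19 for Gapdh, -0.25 for Pgk1 (phosphoglycerate kinase), -0.33 for Pgam2, -0.28 for Eno3, -0.24 for Pkm (pyruvate kinase) and -0.23 for Ldha (lactate dehydrogenase A). Their adjusted p ran from 0.0920 for Pgk1 to 0.297 for Gapdh. Against DUX, 9 of the 11 enzymes from Hk2 to Ldha fell, from -0.68 for Hk2 to -0.30 for Pkm. For Pkm and Ldha, leaving out DUX replicate 1 or 2 or DUX_DOX replicate 2 or 3 ended the call (lowest adjusted p = 0.0715 for Pkm and 0.0849 for Ldha). The enzymes not called were Aldoa (log2 fold change -0.32, SE 0.12, adjusted p = 0.0578) and Gapdh (log2 fold change -0.30, SE 0.13, adjusted p = 0.0866). Of 15 alternatives, 5 called Aldoa and 1 called Gapdh. Aldoa had 17604, 17837 and 16717 CPM in DUX and 15077, 12095 and 14606 in DUX_DOX, and the groups did not overlap. With sarcomere scaling, Gpi1, Pgk1 and Pkm took the other sign against EV_DOX, at 0.02, 0.03 and 0.04, none called, and against DUX only Hk2 and Pgam2 of the 11 were called.

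Summed over the 35 genes, the share of all counts was 5.01 to 5.44% in EV_DOX and 4.34 to 4.85% in DUX_DOX. The groups did not overlap, with a difference of -0.56 percentage points (exact permutation test, two-sided, p = 0.1, the smallest that 3 against 3 libraries allow). In DUX the share was 5.30 to 5.47% (difference -0.74 points, exact permutation p = 0.1).

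Of the isoforms used mainly outside muscle, those of phosphofructokinase rose. Pfkl, the liver phosphofructokinase, had 9.71, 10.8 and 9 CPM in EV_DOX and 14.9, 17.3 and 14.7 in DUX_DOX (log2 fold change 0.67, SE 0.14, adjusted p = 0.00280). Pfkp, the platelet form, had 7.59, 6.12 and 6.81 CPM and 10.8, 11.4 and 12.7 CPM (log2 fold change 0.76, SE 0.13, adjusted p = 0.000598). For both, the DUX_DOX libraries were the highest of the 12, and both calls held under all 16 alternatives. Their levels stayed small: in DUX_DOX, Pfkl reached 2.34 ± 0.22 and Pfkp 0.867 ± 0.0712 CPM per kilobase, beside 986 ± 108 for Pfkm. Pgam1, at 2.26, 2.94 and 2.74 CPM in EV_DOX and 3.35, 3.79 and 4.79 in DUX_DOX, did not overlap but was not called (log2 fold change 0.59, SE 0.24, adjusted p = 0.0919). Hk1 (log2 fold change 0.23, SE 0.14, adjusted p = 0.244), Eno1 (log2 fold change 0.13) and Ldhb, the heart form of lactate dehydrogenase (log2 fold change -0.41, SE 0.28, adjusted p = 0.303), were not called either. With sarcomere scaling Hk1 (0.51), Eno1 (0.40) and Pgam1 (0.87) were called higher. Ldhb did fall against DUX (log2 fold change -1.06, SE 0.28, adjusted p = 0.0108), without overlap, and that call held under all 15 alternatives. Hk1, Eno1 and Pgam1 were not called against DUX in the main fit. With sarcomere scaling they were called higher than in DUX, at 0.54, 0.34 and 0.87 (adjusted p = 0.0155, 0.0134 and 0.0167).

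A ratio of 2 isoforms within a library needs no scaling between libraries. The log2 ratio of Pfkm counts to Pfkl plus Pfkp was 7.74, 7.92 and 8.24 in EV_DOX, 8.20, 8.22 and 7.96 in DUX and 7.15, 6.67 and 6.91 in DUX_DOX. It was lower by -1.06 against EV_DOX and -1.21 against DUX, with every DUX_DOX library below all 9 others. The ratio of Pgam2 to Pgam1 went from 9.34, 9.30 and 9.50 in EV_DOX to 8.95, 8.26 and 8.18 in DUX_DOX. Pygm to Pygb went from 10.00, 10.20 and 10.63 to 9.69, 9.73 and 9.72. None of these 3 ratios overlapped between the groups. Each gave p = 0.1 by the exact two-sided permutation test and 0.133 after adjustment over 12 such tests, and no smaller p is possible with 3 libraries a group. Hk2 to Hk1 (difference -0.62) and Eno3 to Eno1 (difference -0.41) overlapped with EV_DOX, with exact permutation p = 0.2 for each. Ldha to Ldhb differed by 0.12 from EV_DOX (exact permutation p = 0.7) and by 0.72 from DUX (p = 0.1, adjusted 0.133). Against DUX none of the 6 ratios overlapped.

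**Figure D4:**
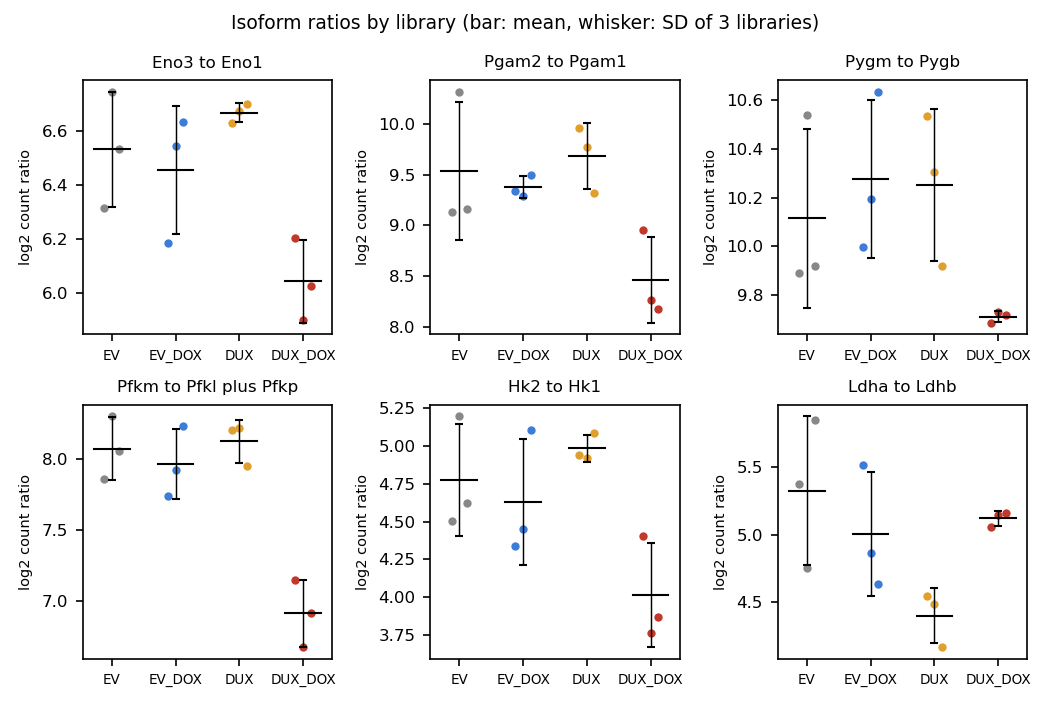
Log2 of the ratio of counts between muscle and other isoforms in each library, with the group mean and the SD of 3 libraries, each panel on its own axis. The DUX_DOX points of Pfkm to Pfkl plus Pfkp lie between 6.67 and 7.15, below the 9 other libraries, while Ldha to Ldhb in DUX_DOX lies above DUX and within EV_DOX.

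Summed macrophage and monocyte markers were 152 to 212 CPM in EV_DOX and 383 to 551 in DUX_DOX, and 21 of the 23 rose. Lyz2, the most abundant, had 59, 58.5 and 51.3 CPM and 118, 102 and 160.2 CPM in these groups. The neutrophil and the T and NK cell markers are not among the genes analysed here, and of 9 markers of fibro-adipogenic cells 1 rose. The fast fibre markers summed to 136719 to 147883 CPM in EV_DOX and 105833 to 120698 in DUX_DOX, with 4 of 10 lower and 0 higher. The background for these marker counts is 14.9% of all genes higher and 10.3% lower. The part of these cell types in the values of Pfkl, Pfkp and the muscle isoforms was not tested.

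The enzymes that make and break fructose bisphosphates held the lowest value of all 35 against EV_DOX. Pfkfb1, a kinase-phosphatase that sets the activator of phosphofructokinase, had 49.6, 50.9 and 59.8 CPM in EV_DOX and 34.1, 19.7 and 31.7 in DUX_DOX (log2 fold change -0.91, SE 0.16, adjusted p = 0.000977). DUX_DOX replicate 2 was the lowest library, all 3 lay below the other 9, and the call held under all 16 alternatives. Against DUX the log2 fold change was -1.14. Its sister Pfkfb3 varied widely, at 133, 374 and 201 CPM in EV, 144, 198 and 185 in EV_DOX, 416, 391 and 297 in DUX and 97.6, 157 and 123 in DUX_DOX. It was not called against EV_DOX (log2 fold change -0.48, SE 0.29, adjusted p = 0.237) and was lower than in DUX (log2 fold change -1.55, SE 0.29, adjusted p = 0.00130). Pfkfb4, from the same family, was called in neither, with log2 fold changes of -0.24 and 0.05.

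Fbp2, the muscle fructose bisphosphatase that runs the committed step backward, had 24.5, 45.6 and 38.1 CPM in EV, 37.2, 46.9 and 50.9 in EV_DOX, 56.7, 53.2 and 61.6 in DUX and 39.4, 29.6 and 39.4 in DUX_DOX. DUX_DOX overlapped with EV_DOX (log2 fold change -0.32, SE 0.18, adjusted p = 0.227) and lay below DUX (log2 fold change -0.66, SE 0.18, adjusted p = 0.0146), a call lost without DUX replicate 3, without DUX_DOX replicate 2 and with sarcomere scaling (adjusted p = 0.0524 to 0.0764). Gpd1, which turns a glycolytic intermediate into glycerol phosphate, was not called against EV_DOX (log2 fold change -0.06, SE 0.08, adjusted p = 0.646). With sarcomere scaling Gpd1 was called higher, at 0.22 (adjusted p = 0.0442).

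Dux vector without doxycycline gave no call among the 35 in edgeR. In DUX against EV, 0 of 12751 genes passed (0%), 6 of the 35 had an unadjusted p under 0.05, beside 15.8% of all genes, and the median was 0.08. The DESeq2 test called 153 genes (1.2%), 3 of them among the 35: Fbp2 higher (log2 fold change 0.66), Pfkfb4 lower (-0.54) and Phka1 lower (-0.42). The test of limma-voom called 0. Ldhb had 47.4, 81.8 and 36.4 CPM in EV and 93.5, 97.2 and 113 in DUX, with the libraries apart but no call (log2 fold change 0.87, SE 0.28, adjusted p = 0.214). Without EV replicate 2, the library of EV with the most RNA of Ldhb, Gbe1 and Pfkfb3, edgeR called 118 of all genes. Among them were 5 of the 35: Ldhb, Gbe1, Fbp2 and Pfkfb3 higher and Pfkfb4 lower.

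Doxycycline chow in muscle with the empty vector likewise gave no call among the 35. In EV_DOX against EV, 5 of all genes passed (0.0392%), 2 of the 35 had an unadjusted p under 0.05, beside 7.83% of all genes, and DESeq2 and limma-voom called 0 of the 35. The 2 genes at that unadjusted p were Phka1 (log2 fold change -0.39, unadjusted p = 0.00616, adjusted p = 0.466) and Ppp1r3a (log2 fold change -0.38, unadjusted p = 0.00445, adjusted p = 0.463). For both, every EV_DOX library was below every EV library.

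The interaction asks whether the difference between Dux and empty vector itself differed between the chows. It was called for 3 of the 35 genes, all lower, beside 3.43% of all genes lower and 6.97% higher, and 21 of the 35 had an unadjusted p under 0.05, beside 26.9% of all genes. The median was -0.32, beside 0.01 over all genes. Phkg1 had a log2 difference of -0.16 on normal chow and -0.69 on doxycycline chow (interaction -0.53, SE 0.11, adjusted p = 0.00740). Pfkfb1 had 0.14 and -0.91 (interaction -1.05, SE 0.22, adjusted p = 0.00925). In EV, Pfkfb1 was at 54.9, 65.6 and 50.7 CPM and Phkg1 at 552, 527 and 530.5. DUX held 62.2, 61.9 and 64 CPM of Pfkfb1 and 471, 489 and 482 of Phkg1.

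Fbp2 changed sign between the chows, from 0.66 to -0.32 (interaction -0.98, SE 0.26, adjusted p = 0.0284). That call was lost in 7 of 21 alternatives, among them without EV replicate 3 (0.0505), EV_DOX replicate 2 (0.0501) or 3 (0.0681), DUX replicate 1 (0.0587) or 3 (0.0688) or DUX_DOX replicate 2 (0.0747), where the values are adjusted p. With sarcomere scaling the Phkg1 interaction also missed the threshold (-0.33, adjusted p = 0.0884), and Pfkfb1 kept its call (-0.84). Ldhb had the lowest interaction value of the 35 and missed the threshold (-1.28, SE 0.39, adjusted p = 0.0510). For the genes that rose against EV_DOX the interactions were 0.76 for Ppp1r3c, 0.62 for Pfkl, 0.53 for Pfkp and 0.35 for Gyg, with adjusted p from 0.0622 to 0.101, none called. Of the genes that fell against EV_DOX, only Phkg1 and Pfkfb1 were called in the interaction. For the rest the adjusted p ran from 0.0564 for Gys1 to 0.442 for Phka1. The interactions were -0.22 for Phka1, -0.37 for Phkb (adjusted p = 0.0878) and -0.32 for Ppp1r3a (adjusted p = 0.204).

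**Figure D5:**
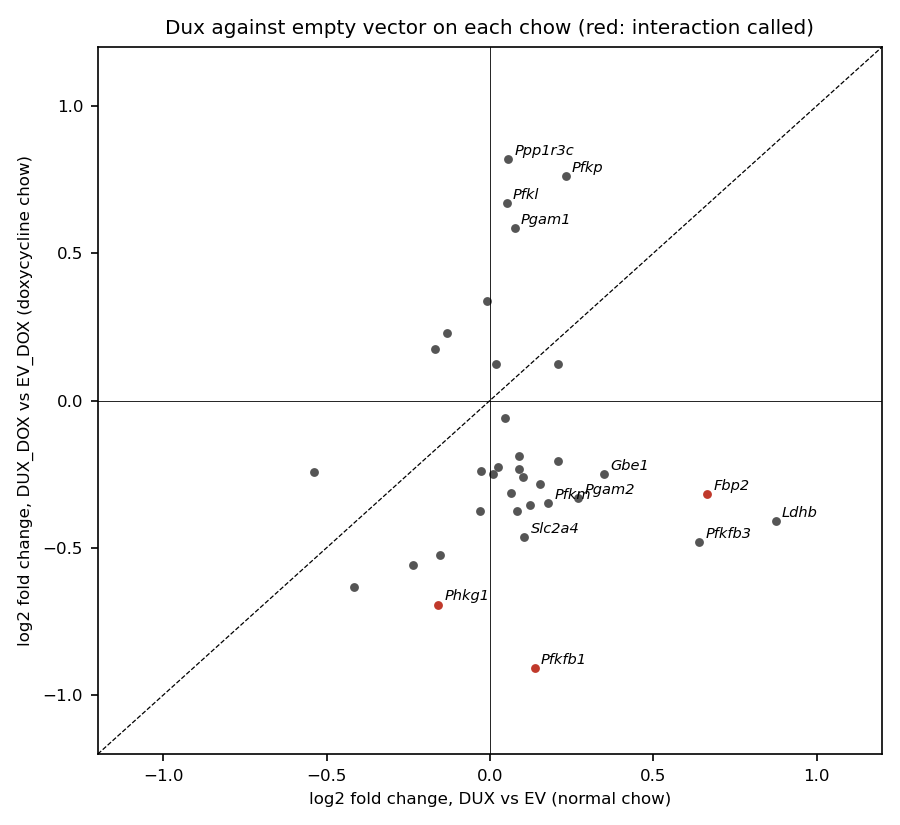
Log2 fold change of Dux against empty vector on normal chow (horizontal) and on doxycycline chow (vertical) for the 35 genes, with the line of equal values dashed and genes with an interaction beyond 0.5 named. Phkg1, Pfkfb1 and Fbp2, whose interaction was called, are red and lie below the line.

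Genes of the pathway outside the 35 were read from lists of their own, again in DUX_DOX against EV_DOX. Of 15 further glycolysis genes 4 rose and 0 fell, with a median of 0.29. Here and in the lists below, the background is 14.9% of all genes higher and 10.3% lower. Those that rose included Adpgk, an ADP-dependent glucokinase (log2 fold change 1.21, SE 0.13, adjusted p = 1.27e-05), Aldoc, the brain aldolase (log2 fold change 2.27, SE 0.33, adjusted p = 0.000214), and Slc2a1, which encodes the transporter GLUT1 (log2 fold change 0.94, SE 0.18, adjusted p = 0.00196). Aldoc stood at 0.876, 0.852 and 0.47 CPM in EV_DOX and 2.13, 4.22 and 4.41 in DUX_DOX, without overlap. Of 21 further glycogen genes 6 fell and 3 rose, with a median of -0.23. Those that fell included Epm2a, the glycogen phosphatase laforin (log2 fold change -0.42, SE 0.08, adjusted p = 0.00235), and Pgm2, a phosphoglucomutase (log2 fold change -0.47, SE 0.10, adjusted p = 0.00490).

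In the pentose phosphate list, 3 of 9 genes rose and 2 fell. G6pdx, its entry enzyme (log2 fold change 0.88, SE 0.16, adjusted p = 0.00120), and Pgd, the next dehydrogenase (log2 fold change 0.57, SE 0.11, adjusted p = 0.00153), were higher, and H6pd, the enzyme of the endoplasmic reticulum (log2 fold change -0.43, SE 0.09, adjusted p = 0.00237), was lower. Of 5 gluconeogenesis genes 0 passed the test of edgeR, 1 had an unadjusted p under 0.05, and DESeq2 and limma-voom called 0. Of 22 genes of pyruvate entry and the redox shuttles 8 fell and 1 rose, with a median of -0.30. Pdk3, a kinase that inhibits pyruvate dehydrogenase, rose (log2 fold change 1.54, SE 0.21, adjusted p = 0.000144), while Pdpr, a regulator of its phosphatase (log2 fold change -0.81, SE 0.16, adjusted p = 0.00236), and Gpd2, the mitochondrial glycerol phosphate dehydrogenase (log2 fold change -0.53, SE 0.12, adjusted p = 0.00481), fell. Of 35 regulators 10 fell and 2 rose. Tbc1d4, which holds GLUT4 inside the cell until insulin acts (log2 fold change -1.10, SE 0.17, adjusted p = 0.000377), and Ppargc1a, a coactivator of oxidative genes (log2 fold change -0.71, SE 0.12, adjusted p = 0.000590), fell, and Hif1a, the hypoxia factor (log2 fold change 0.64, SE 0.11, adjusted p = 0.000598), rose.

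Some counts may be shared with other genes. Exons of 8 of the 35 overlap those of a measured gene on the other strand, and whether the counting used strand is not given in the sources used here. Among the called genes these are Phkg1 with Sumf2 (log2 fold change 0.40 against EV_DOX), Pfkfb1 with Apex2 (-0.23), Pfkp with Pitrm1 (-0.11), Gys1 with Ruvbl2 (-0.03) and Tpi1 with Spsb2 (1.22), of which Spsb2 alone was called. Gapdh, Pgk1, Tpi1, Eno1, Pgam1, Aldoa and Ldha have near-identical copies elsewhere in the genome, so their single values are uncertain.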

How the data were processed

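Per the labels' protocols, 200 ng of RNA per library went into poly-A enrichment. The deposited values are raw read counts per gene, and the submitters' processing notes list featureCounts, STAR, bcl2fastq 2.17.1.14 and the build GRCm38. The annotation the authors counted against is not given here. The lowest mean count of a gene in the table is 10, so genes below that are not analysed here.

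Counts were tested in edgeR 4.0.16 (R 4.3.3) by its quasi-likelihood F test, two-sided, with TMM factors, the default low-count filter and 1 mean per group over all 12 libraries. This left 12751 genes, over which p-values were adjusted by Benjamini-Hochberg. CPM use TMM-adjusted totals, of 11880593 to 13811999 counts before adjustment, and for members with low counts, such as Pfkp and Pgam1, counting error is as large as the spread between libraries in some groups. Fold changes carry a prior count of 0.125. Exon lengths and positions came from GENCODE M21. Isoform ratios and the summed share were compared by exact permutation. The scripts were tested on simulated data. Alternatives were other scaling factors, other filters, DESeq2 1.42.0, limma-voom (limma 3.58.1), a replicate block, the compared groups alone and each library left out. No pair of libraries within a group agreed within sampling noise (chi-square per degree of freedom 4.81 to 25.5).

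The members and all lists were chosen with earlier results of these data known. All 35 genes are named. Those called against EV_DOX or in the interaction are given by library, and of each other list at most 3 called genes are named, by smallest p. A gene that this rule would name is not reported here.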

Additional observations from a re-analysis of the deposited data

Results flagged for a closer look

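For 3 genes the difference between Dux and empty vector differed between normal and doxycycline chow by the edgeR interaction test. The interaction, on the log2 scale, was -0.53 for Phkg1, -0.98 for Fbp2 and -1.05 for Pfkfb1. Phkg1 and Pfkfb1 were lower with Dux on doxycycline chow, at -0.69 and -0.91, against -0.16 and 0.14 on normal chow. Fbp2 was at 0.66 on normal chow and -0.32 on doxycycline chow, and neither of these passed the edgeR test alone.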

How the results depend on the processing

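The number of the 35 genes called in DUX_DOX against EV_DOX was 14 and fell to 9 with only the compared groups in the fit. It ran from 8 to 18 when 1 library was left out. That was 8 without DUX_DOX replicate 3, 9 without EV_DOX replicate 3 and 18 without DUX_DOX replicate 1. The number called among all genes moved too. It was 3224 in the main fit and 2376 with only the compared groups. Without DUX_DOX replicate 3 it was 2109, and without EV_DOX replicate 3 it was 2362. Of the 14 calls, 8 held in all 16 alternatives, which changed a setting or left out a library of the 2 groups. Against DUX the count was 26, with 19 to 29 under other settings and 21 to 27 with a library left out. Sarcomere scaling gave 19, where 4779 of all genes were called in place of 3772. In DUX against EV the count of the 35 was 3 with DESeq2 and 0 to 5 with a library left out. The 5 came without EV replicate 2. Among all genes these 2 fits called 153 and 118. In EV_DOX against EV the count of the 35 was 0 throughout. The interaction gave 3, but 7 with upper-quartile factors, 5 with sarcomere scaling, 5 with a filter of at least 50 counts in 3 libraries and 12 with DESeq2. Among all genes it was called for 1326 in the main fit, and for 1426, 1600, 1370 and 1501 under these settings in that order. With a library left out it gave 2 to 11 of the 35. That was 11 without EV replicate 2, 10 without EV_DOX replicate 1 and 10 without DUX_DOX replicate 1. Among all genes these fits called 1718, 2148 and 1368. Sarcomere scaling moved the medians of the 35 genes to 0.0224 against EV_DOX, -0.16 against DUX and -0.11 in the interaction, and Gpd1 against EV_DOX reversed to 0.22. As a share of nuclear protein-coding counts, the difference in summed share was -1.16 points against DUX and 0.35 points in DUX against EV. The cause of these changes was not tested.

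With the replicate block the calls were 12 against EV_DOX, 24 against DUX and 4 in the interaction, beside 3040, 3626 and 1108 of all genes. With blocks within chow they were 12 against EV_DOX and 4 in the interaction, beside 2817 and 1007 of all genes. The block ended the calls of Hk2 and Tpi1 against EV_DOX (adjusted p = 0.0666 and 0.0533) and of Pkm and Ldha against DUX (0.0585 and 0.0560), and blocks within chow those of Tpi1 and Pygm against EV_DOX (0.0639 and 0.0673). Whether equal numbers mark 1 animal is unknown, and correlations over 3 libraries a group cannot settle it. Same-numbered muscles on 1 chow correlated at -0.11 to 0.18, 2 of 6 above 0.1. Muscles with other numbers correlated at -0.27 to 0.21, 4 of 12 above 0.1. Of the 12 libraries, 5 correlated best with their own number. With 3 libraries a group, low counts such as those of Pgam1 limit the precision.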
